A study of Mus musculus with 96 samples.

Results

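A set of 10 genes that bring amino acids into the cell or make them was followed through all RNA and DNA methylation tables of the series: Slc7a5, Slc3a2, Slc7a3, Slc7a11, Slc7a1, Slc6a9, Slc1a4, Slc38a2, Asns and Gpt2. They were chosen by symbol, with earlier results of the irradiation comparison of RNA known, so the RNA values below describe these 10 genes and are no independent test of them. They are 10 of the 12371 genes tested in RNA, if all 10 were tested. The C57Bl/6 mice had been irradiated or kept as controls, and their food was either chow or a high fat diet (HFD). RNA was sequenced from satellite cells, which are muscle stem cells, in 24 libraries, 6 for each combination of radiation and diet. DNA methylation of satellite cells was read in the same 4 combinations, 6 libraries each, by methyl-binding domain (MBD) capture and by reduced representation bisulfite sequencing (RRBS), and RRBS was also run on the stromal vascular fraction (SVF), the usual name for the mixed non-fat cells of adipose tissue, with 6 control chow, 7 control HFD, 4 irradiated chow and 7 irradiated HFD libraries. The labels state no radiation dose, sex, age or interval before collection, and no fat depot. The labels name more than one RNA extraction method and do not say which library had which. All values are comparison statistics from the authors' tables or were computed from them. No value of a single library was used, so the spread between libraries enters only through the authors' tests, and the depth behind each value is unknown.

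Amino acid transporters work in families. Slc7a5 (LAT1), which carries large neutral amino acids such as leucine, and Slc7a11 (xCT), which imports cystine in exchange for glutamate, are light chains that reach the cell surface bound to the heavy chain Slc3a2 (CD98). Slc7a1 and Slc7a3 carry arginine and lysine and need no heavy chain, Slc6a9 (GlyT1) carries glycine, Slc1a4 (ASCT1) serine, alanine and other small neutral amino acids, and Slc38a2 (SNAT2) small neutral amino acids with sodium. Asparagine synthetase (Asns) makes asparagine from aspartate with nitrogen from glutamine, and Gpt2, the mitochondrial alanine aminotransferase, interconverts glutamate and pyruvate with alanine and 2-oxoglutarate. Many of these genes are known targets of the transcription factor ATF4, whose protein is made when amino acids are short or the endoplasmic reticulum is stressed. ATF4 binds with C/EBP proteins at a composite element, and one such element was described in the human ASNS promoter.

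The element was searched for as TGATGNAA, on both strands, in RefSeq promoter windows of build GRCm38.p6, the assembly behind mm10, that run from 250 bases before to 50 bases after each gene start. Of the 10 genes, 8 had a window, with 11 windows in all, and 3 held the motif, Asns, Slc7a11 and Slc1a4. Slc7a5 and Slc7a3 had no window, so their promoters were not searched. Among all genes with a window, 4.51% held it. A match is a description of the letters and not a measured binding site. The 3 promoters are shown because 1 of them, Asns, belongs to a gene that was lower after irradiation at the threshold used below, 1, Slc7a11, to a gene that missed it, and 1, Slc1a4, to a gene listed only for methylation. The motif is in capitals and each line reads 5′ to 3′ on the strand of the gene, here the minus strand for all 3.
Asns, chr6:7693210-7693259: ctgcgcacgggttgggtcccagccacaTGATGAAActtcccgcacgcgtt
Slc7a11, chr3:50443639-50443688: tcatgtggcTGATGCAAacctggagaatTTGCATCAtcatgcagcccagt
Slc1a4, chr11:20332703-20332732: agcgtgcctcctgcgTTGCATCAtctccag

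Counted from the transcript start of the window, the Asns match ran from -23 to -16. Slc7a11 held 2 matches on opposite strands, from -66 to -59 and from -47 to -40, before a transcript that starts inside the full span of the gene. In Slc1a4 the match lay across the start, from -4 to 4. The stricter letters TGATGCAA were found in 2 of the 8 genes, Slc7a11 and Slc1a4, against 1.03% of all genes with a window.

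Irradiated satellite cells were compared with control cells over both diets. Of the 10 genes, 6 were lower after irradiation and 0 were higher. In the authors' deposited table, 6 had an adjusted p under 0.05 and 7 an adjusted p under 0.1, which is the threshold for being listed at all. All 7 listed genes were lower. Over all 12371 tested genes, 3.64% were lower at 0.05 and 7.05% at 0.1, and because the 10 genes were picked with this comparison known, nothing is read from that gap. The deposited value over both diets is the sum of the chow and HFD effects, so it was divided by 2 to give the mean log2 fold change per diet. Each error is an approximate standard error (SE) computed from the deposited fold change and likelihood ratio, with 6 libraries in each of the 4 groups. In bulk RNA, fewer cells of a type and less RNA per cell cannot be told apart.

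Among the transporters, the arginine and lysine carrier Slc7a3, on chromosome X from 101079146 to 101090452, stood lowest of the 7. Its mean log2 fold change was -1.53 ± 0.27 (approximate SE), which is 34.7% of the control level, with an adjusted p of 2.00e-05 in the authors' deposited table. By p-value it ranked 17 among the 12371 genes. It was a modest transcript, with a mean abundance of 3.74 on the log2 CPM scale, in which counts are scaled to library size. Its close relative Slc7a1, on chromosome 5 from 148327410 to 148399904, was not listed in any of the 4 RNA tables.

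The leucine carrier and its heavy chain were both lower. Slc7a5, on chromosome 8 from 121881146 to 121907686, had a mean log2 fold change of -0.80 ± 0.16, or 57.4% of control, with an adjusted p of 0.000231 in the authors' deposited table. Slc3a2, on chromosome 19 from 8706882 to 8723369, had -0.72 ± 0.15, or 60.6% of control, with an adjusted p of 0.000443 in that table. Their mean abundances were 8.45 and 7.53 on the log2 CPM scale. Slc7a11, the other light chain that uses Slc3a2, on chromosome 3 from 50364936 to 50499087, had -0.60 ± 0.22, or 66.1% of control, and did not pass 0.05 (deposited adjusted p = 0.0770). Its value lay within 1 approximate SE of those of Slc7a5 and Slc3a2, and all 3 come from the same libraries.

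The glycine carrier Slc6a9, on chromosome 4 from 117835258 to 117869305, had a mean log2 fold change of -0.68 ± 0.19, or 62.5% of control, with an adjusted p of 0.0163 in the authors' deposited table. It was the weakest of the 6 that passed, at rank 366 by p-value. The small neutral amino acid carriers Slc1a4, on chromosome 11 from 20302180 to 20332713, and Slc38a2, on chromosome 15 from 96687392 to 96699728, were not listed in any RNA table. An unlisted gene was either tested with an adjusted p of at least 0.1 or not tested, so Slc7a1, Slc1a4 and Slc38a2 have no RNA value here.

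Both enzymes fell. Asns, on chromosome 6 from 7675165 to 7693209, had a mean log2 fold change of -0.71 ± 0.14, or 61.2% of control, with an adjusted p of 7.37e-05 in the authors' deposited table and rank 29 by p-value. Gpt2, on chromosome 8 from 85492576 to 85528902, had the smallest change of the 7, -0.50 ± 0.12 or 70.6% of control, with a deposited adjusted p of 0.00179. Asns was among the more abundant of the 7 transcripts, at 8.37 log2 CPM, and Gpt2 stood at 7.61. The median of the 7 listed genes was -0.71, beside a median of -0.52 over the 450 genes that were lower at 0.05, both as mean log2 fold changes. The 7 were chosen with these results known and include Slc7a11, which did not pass 0.05, so nothing is read from that gap.

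**Figure D1:**
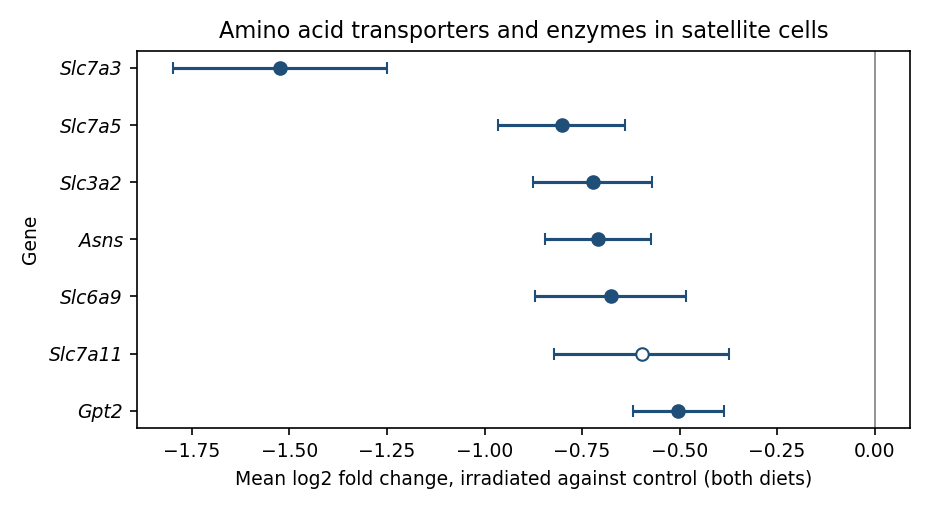
Mean log2 fold change per diet after irradiation for the 7 listed genes (x axis), from the authors' table over both diets divided by 2; bars are approximate SE, filled points have an adjusted p under 0.05 and the open point, Slc7a11, has 0.0770. Slc7a3 at -1.53 stands apart from the other 6, which lie between -0.80 and -0.50.

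On chow alone, 5 of the 10 genes were lower and 0 higher at an adjusted p under 0.05, where 0.865% of all tested genes were lower. With the stricter Benjamini-Yekutieli adjustment the count was 2, Slc7a3 and Asns, and Gpt2, Slc7a5 and Slc3a2 no longer passed. The chow libraries are also part of the comparison over both diets, so these are not separate evidence. Slc7a3 stood at -2.04 ± 0.39, or 24.3% of control (adjusted p = 0.000703), rank 4 in the authors' deposited table for chow. Slc7a5 stood at -0.92 ± 0.23, or 52.9% of control (adjusted p = 0.0165), and Slc3a2 at -0.81 ± 0.22, or 57.0% of control (adjusted p = 0.0257), in the same deposited table. The enzymes followed, Asns at -0.87 ± 0.19, or 54.9% of control (adjusted p = 0.00460), and Gpt2 at -0.69 ± 0.17, or 61.8% of control (adjusted p = 0.0127), in that deposited table. Slc6a9 and Slc7a11 were not listed for chow.

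On the high fat diet, 0 of the 10 genes were listed by the authors at either threshold, where 0.0162% of all tested genes were lower at 0.05. A value on this diet could be obtained for the 5 chow genes, by subtracting the chow effect from the deposited sum of both. The 5 values were all below 0. Slc7a3 had -1.01 ± 0.38 on the high fat diet, or 49.6% of control. Slc7a5 had -0.68 ± 0.23 and Slc3a2 -0.64 ± 0.22, or 62.2% and 64.4% of control. Asns had -0.55 ± 0.19, or 68.2% of control, and Gpt2 had -0.31 ± 0.17, or 80.6% of control. Their approximate likelihood ratios ran from 3.56 for Gpt2 to 8.89 for Slc7a5, while the lowest ratio the authors listed on this diet was 14.5, against 9.07 on chow. The high fat diet list therefore set a higher bar than the chow list, because fewer genes passed the same adjusted p.

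For Slc6a9 and Slc7a11, listed over both diets only, absence from both single-diet lists gave approximate bounds. Slc6a9 lay between -0.83 and -0.31 on chow and between -1.04 and -0.53 on the high fat diet, below 0 on both. Slc7a11 lay between -0.96 and 0.02 on chow and between -1.21 and -0.24 on the high fat diet. These bounds say where the value must lie for the gene to be unlisted on each diet and listed for their sum, and they assume an equal error on both diets.

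**Figure D2:**
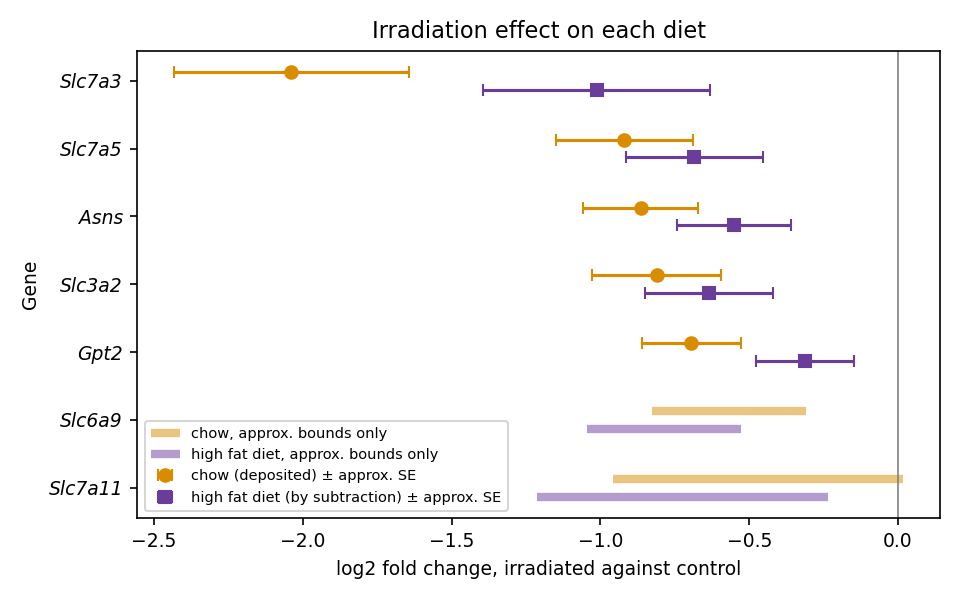
Irradiation effect on each diet as log2 fold change (x axis) for the 7 listed genes. Points are the deposited chow value and the high fat diet value by subtraction with approximate SE, and thick bars are approximate bounds for Slc6a9 and Slc7a11. In the 5 genes with points the high fat diet value lies closer to 0 than the chow value, and the bars overlap for Slc7a5, Asns and Slc3a2. These 5 genes had to be listed on chow, which favours this order.

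Whether the irradiation effect differed between the diets was tested for these 5 genes as the chow effect minus the high fat diet effect, an approximate Wald test adjusted over the 314 genes that allowed it. The effect was smaller on the high fat diet in 5 of 5 genes, with ratios of the HFD to the chow effect from 0.449 for Gpt2 to 0.783 for Slc3a2, and 0.598 as the median of the 309 chow genes that allowed this. The difference was -1.03 for Slc7a3 (95% interval -2.10 to 0.05), -0.38 for Gpt2 (-0.84 to 0.08), -0.31 for Asns (-0.84 to 0.22), -0.23 for Slc7a5 (-0.87 to 0.40) and -0.18 for Slc3a2 (-0.77 to 0.42). Every interval held 0, the adjusted p for these genes was 0.594 or above, and 0 of the 314 genes (0.0%) passed, with 15 at an unadjusted p under 0.05. These 5 genes had to be listed on chow and over both diets, while 0 of the 10 were listed for irradiation on the high fat diet. Such a selection favours a smaller effect on the high fat diet. Nothing is therefore read from the 5 of 5, the ratios or the sign of the differences. How much the selection shifts them was not tested, and intervals this wide do not show that the diets act alike. In irradiated mice, the high fat diet was compared with chow directly, and 0 of the 10 genes were listed, where 0.00808% of tested genes, which is 1 gene, passed 0.05.

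Genes around the 10 were described from lists that were also chosen with earlier results known. Of 51 other amino acid transporters, 0 were lower and 2 higher at an adjusted p under 0.05 over both diets. Over all tested genes 3.64% were lower and 3.05% higher. The count of 2 higher is near that background if all 51 were tested, which is not known. The 2 were the glial glutamate transporter Slc1a2, a scarce transcript at 0.37 log2 CPM with a mean log2 fold change of 1.54 ± 0.36 (deposited adjusted p = 0.00179), and Slc43a2 (LAT4), a carrier of large neutral amino acids, at 0.36 ± 0.12 (deposited adjusted p = 0.0476). Slc6a17, a neutral amino acid carrier of neurons, had 0.45 ± 0.16 and did not pass (deposited adjusted p = 0.0662). Whether this list differs from the 10 genes was not tested, since the 10 were chosen on their values.

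Enzymes of amino acid synthesis outside the 10 genes had 10 of 33 lower and 0 higher over both diets, and 5 of 33 lower on chow, at an adjusted p under 0.05. Over all tested genes 3.64% were lower over both diets and 0.865% on chow. Nothing is read from these gaps, because the list was chosen with earlier results known. The 10 lower enzymes had a median mean log2 fold change of -0.71. The folate enzyme Mthfd2 stood at -0.72 ± 0.13 and the serine synthesis enzymes Psat1 at -0.79 ± 0.14 and Phgdh at -0.43 ± 0.11. Pycr1 and Aldh18a1, which make proline, stood at -0.71 ± 0.16 and -0.44 ± 0.12. Cth, which makes cysteine from cystathionine, stood at -0.85 ± 0.23, and the phosphatase of serine synthesis Psph at -0.52 ± 0.14. Aldh1l2, an enzyme of mitochondrial folate, stood at -0.89 ± 0.18. These values of single genes come from the authors' deposited table divided by 2.

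Regulators and targets of the amino acid response had 13 of 26 lower and 0 higher over both diets, and 3 lower on chow. The shares lower over all tested genes were 3.64% and 0.865%. This list too was chosen with earlier results known, so nothing is read from the gaps. ATF4's own transcript, Atf4, stood at -0.41 ± 0.12 (deposited adjusted p = 0.0248), a smaller change than in Asns. The related factor Atf5 stood at -0.67 ± 0.16, the ATF4 target and feedback inhibitor Trib3 at -1.68 ± 0.43, the stress factor Ddit3 (CHOP) at -1.33 ± 0.39 and the eIF2alpha phosphatase subunit Ppp1r15a at -0.69 ± 0.20, each from the deposited value divided by 2. The hormone Fgf21 had the largest change of the list, -2.29 ± 0.36, and the secreted glycoprotein Stc2, the lipoprotein receptor Vldlr and the endoplasmic reticulum protein Herpud1 stood at -0.82 ± 0.18, -0.82 ± 0.23 and -0.66 ± 0.13. Transcripts of the kinases that start the response, among them Eif2ak3 and Eif2ak4, were not listed. Genes of amino acid sensing at the lysosome, where the kinase mTOR is switched on, had 1 of 25 lower, the small GTPase gene Rraga at -0.24 ± 0.08 (deposited adjusted p = 0.0499), and 0 higher. That count is near the 3.64% of all tested genes that were lower, if all 25 were tested.

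**Figure D3:**
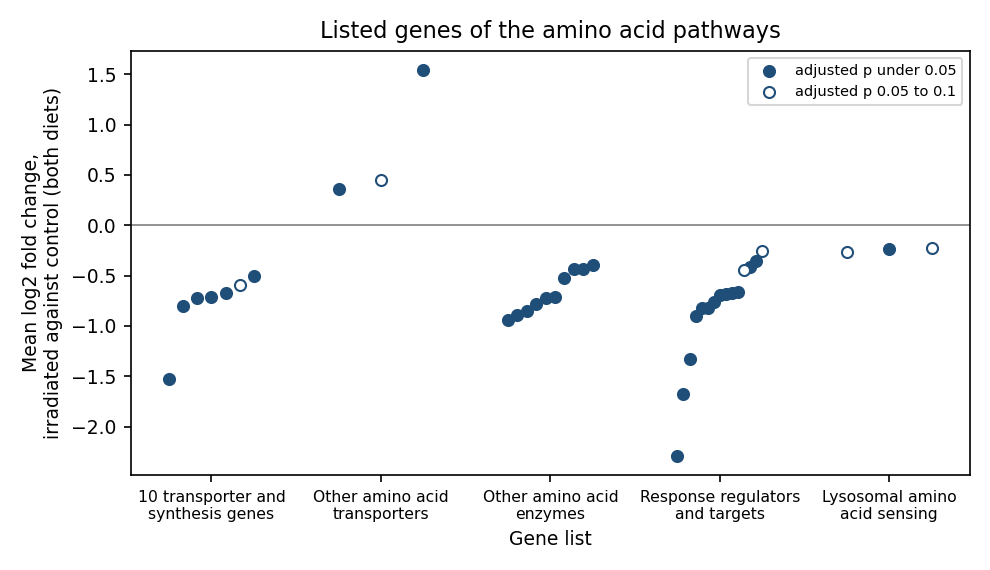
Mean log2 fold change per diet after irradiation (y axis) for each gene listed in the authors' table over both diets, by gene list (x axis); filled points have an adjusted p under 0.05. Unlisted genes have no value and are not drawn. Every listed gene of the 10, of the enzymes, of the response genes and of the lysosomal genes lies below 0, and the 3 listed genes of the other transporters lie above.

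Markers of cell types were listed in the same comparison. Of 12 satellite cell markers, 3 were lower at 0.05, Cdh15 at -0.46, Chrna1 at -0.40 and Ncam1 at -0.41, with abundances from 9.01 to 11.1 log2 CPM for the 5 listed. Of 8 fibroblast markers 4 were lower, with a median mean log2 fold change of -1.33 and abundances from 0.68 to 6.07 log2 CPM for the 5 listed, of 7 macrophage markers 2 were lower, and of 6 perivascular markers 2 were lower and 1 higher. Of 8 endothelial markers 0 were listed over both diets. On chow, 2 endothelial markers were lower, Cdh5 at -3.03 and Pecam1 at -2.25, both scarce at 0.33 and 0.60 log2 CPM. Also lower on chow were 2 fibroblast markers, Thy1 at -2.20 and Col1a2 at -1.50, and 1 perivascular marker, Mcam at -0.79. Of the satellite cell and macrophage markers, 0 were lower on chow. Over all tested genes 3.64% were lower and 3.05% higher over both diets, and 0.865% were lower on chow. How many of the markers were tested is not known. Levels of these markers in each group, and of the unlisted ones, were not analysed here, and their part in the lower values of the 10 genes was not tested.

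DNA methylation was not used to choose the genes. In the MBD tables, which list promoters, CpG islands, CpG shores and exons, 0 of the 10 genes had a listed region, by symbol or by RefSeq transcript. Over protein-coding genes of the RefSeq annotation 9.0% had one in any of these tables. In the 6 RRBS tables, 4 of the 10 genes had a listed region, Slc7a5, Slc3a2, Slc1a4 and Slc38a2, where 34.9% of protein-coding genes had one in any table. That share is close to the background, so the count says nothing particular of these genes. Table by table, regions were listed for 3 of the 10 in the SVF radiation table (14.2% of genes), 4 in SVF diet (19.2%), 1 in the SVF interaction (4.22%), 2 in satellite cell radiation (20.3%), 2 in satellite cell diet (19.7%) and 0 in the satellite cell interaction (3.73%). Whether the other genes had covered CpGs is not known from these lists.

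The 14 listed regions all lay in core promoters, at most 531 bases from an annotated transcript start in the authors' tables, and took 10 distinct positions. Of all listed regions, 78.8% to 87.1% in each RRBS table lay in core promoters, so this placement is not particular to these genes. Each RRBS table compares a group 1 with a group 2, and the headers do not say which mice these are, so directions are given as coded. The levels are the authors' own estimates within each comparison, as medians over a region, and how they were estimated is not stated, so levels far below 1% are best read as near 0. Group 1 levels were mostly equal between the radiation and diet tables. Of 5003 regions listed at identical positions for radiation and diet in satellite cells, 98.6% had group 1 levels equal to within 1e-09, and in the SVF 97.5% of 2987 did, while group 2 levels were equal in 0.0800% and 0.0670%. Between the interaction tables and these, 78.9% to 87.3% of shared regions had equal group 1 levels. Radiation and diet values of a region therefore mostly share their group 1 and are given side by side without a test. The median p-values of these tables are not read as the spread between animals.

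The region of Slc1a4 that was listed most often is shown because it was read at one position in both cell types. It lies at chr11:20332829-20332928, at a distance of -116 bases from the gene start in the authors' annotation. The line gives it with 1 more base at each side, 5′ to 3′ on the minus strand, with the 6 CG pairs, the sites that can be methylated, in capitals.
Slc1a4, chr11:20332828-20332929: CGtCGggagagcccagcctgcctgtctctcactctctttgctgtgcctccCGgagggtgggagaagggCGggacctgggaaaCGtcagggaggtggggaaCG

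In satellite cells the group 1 level of this Slc1a4 region was 27.6%, and the group 2 level was 0.605% in the radiation table and 1.10% in the diet table. The deposited median differences, group 1 minus group 2, were 27.0 and 26.4 percentage points. In the SVF the same interval had a group 1 level of 0.0440% and a group 2 level of 1.498% for radiation, a difference of -1.45 points. A shorter SVF interval inside it had 0.0573% and 1.92% for diet, a difference of -1.85 points. As coded, the Slc1a4 promoter was higher in group 1 in satellite cells and slightly lower in group 1 in the SVF. Whether group 1 is the same kind of mice in both cell types is not known, so these directions are not compared.

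At Slc7a5, the nearer edge of every region lay within 114 bases of the gene start. In satellite cells, the interval across the start at chr8:121907601-121907688 had 22.0% in group 1 and 0.267% in group 2 for radiation, a difference of 21.6 percentage points. For diet, the interval at chr8:121907654-121907688 had 30.6% and 1.14%, a difference of 29.5 points, while 13 bases at chr8:121907560-121907572 had 0.00280% and 3.56%, a difference of -3.56 points. Neighbouring stretches of 1 promoter were therefore coded in opposite directions in the same table. In the SVF, the interval at chr8:121907531-121907668 had a group 1 level of 0.354%. Its group 2 level was 20.3% for diet, a difference of -19.9 points, and 0.00357% for radiation, a difference of 0.351 points. A shorter interval was the only one listed for the interaction, with 0.175% and 0.000672%. This SVF diet interval holds all of the satellite cell diet interval that was lower in group 1 and only part of the one that was higher, so the cell types are not compared at Slc7a5.

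Slc38a2 and Slc3a2 were listed in the SVF only. At Slc38a2, 396 bases past the start of the transcript the authors annotated, the interval at chr15:96699248-96699302 had 0.125% in group 1 and 21.1% in group 2 for diet, a difference of -21.0 percentage points. For radiation the same interval had 0.00312% in group 2, a difference of 0.121 points. A single CpG at position 96699167 of chromosome 15 had 0.0391% and 1.31% for radiation. At Slc3a2, 245 bases past the start of the annotated transcript, 14 bases at chr19:8713639-8713652 had 0.00454% and 1.25% for diet, a difference of -1.24 points. Of the 14 regions, 6 differed by 19.9 to 29.5 percentage points and 8 by at most 3.56 points, with 7 higher and 7 lower in group 1. Over all listed regions, 32.2% to 60.7% in each table were higher in group 1. Differences as large as 20 points were common in these tables. At least 25.4% of all listed regions of a table differed by as much as each of the 6.

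**Figure D4:**
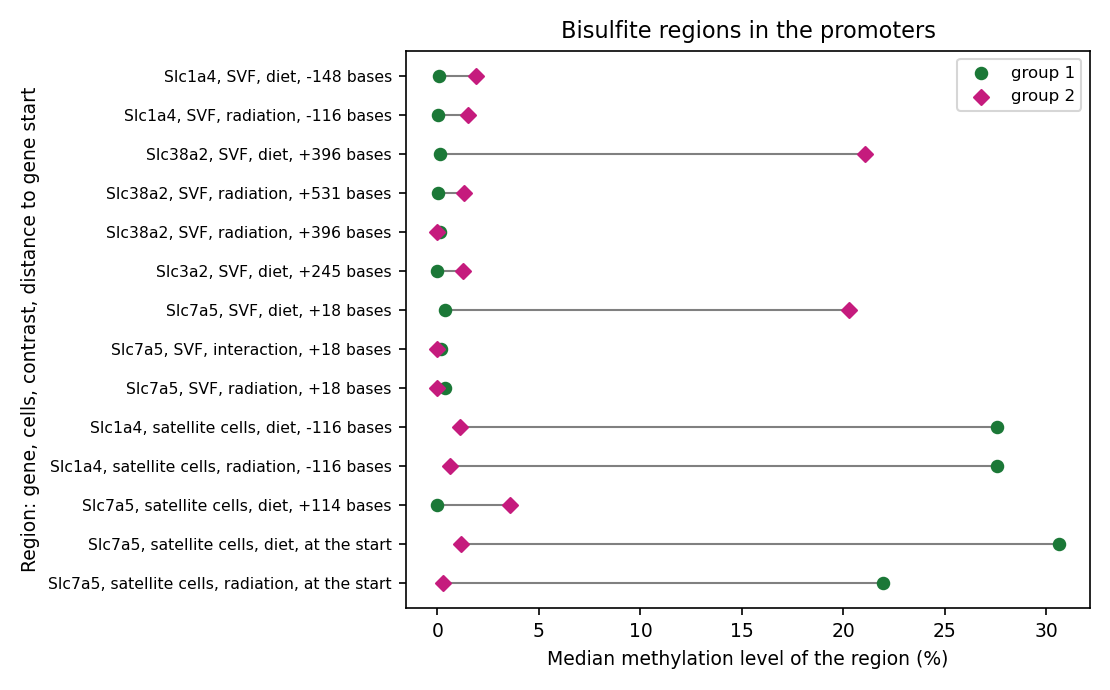
Median methylation level in percent (x axis) in group 1 (circles) and group 2 (diamonds) of each of the 14 listed regions, by gene, cells, contrast and distance to the gene start (y axis). The headers do not name the groups, and group 1 need not be the same kind of mice in both cell types. The 4 widest gaps with group 1 on the right are those of Slc1a4 and Slc7a5 in satellite cells, and both SVF gaps of about that size, at Slc38a2 and Slc7a5 for diet, have group 1 on the left.

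Read together, of the 4 genes with a listed promoter region, Slc7a5 and Slc3a2 were lower in satellite cell RNA after irradiation. Slc1a4 and Slc38a2 were not listed in RNA. The regions of Slc3a2 and Slc38a2 were listed in the SVF only, and that of Slc3a2 for diet only. Of the genes with no listed region, Slc7a3, Slc6a9, Asns and Gpt2 were lower too. Slc7a11 missed the threshold, and Slc7a1 was not listed in RNA. Whether methylation and RNA go together in these genes was not tested. Slc7a3, the transporter with the largest fall in RNA, had no listed region in any methylation table.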

How the data were processed

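All 14 deposited tables held the authors' comparison statistics, and 0 columns of single samples were found. RNA libraries kept strand and had ribosomal RNA removed, per the labels' protocols. Per the submitters' processing notes, the build was mm10, and RNA reads went through Trim Galore 0.4.0, TopHat2, featureCounts and edgeR, and RRBS reads through Bismark 0.14.4. Per the file headers, the authors gave log2 fold changes and log2 CPM, p-values and adjusted p-values for RNA, a likelihood ratio (treated as a score), and for RRBS a p-value. The RRBS headers name methylation levels without a unit, and the deposited values, entered as a score, run from 0 to 1 and were read as a fraction and printed as percent. The deposited MBD tables, entered as a score because notes share their columns, were searched for the genes only. The number of tested genes, 12371, was recovered from adjusted p times rank over p. In 13 genes listed for chow, HFD and both diets, the last value was the sum of the others (largest deviation 3.11e-15), and the approximate SE, the absolute fold change over the root of the likelihood ratio, added in quadrature within a ratio of 0.999 to 1.00. The diet difference divides by the SE of the sum. How the selection of listed genes shifts its intervals and p-values was not tested. Benjamini-Hochberg adjustment was used. The background for RRBS and MBD was the share of 21900 protein-coding RefSeq genes with a listed region. Python 3.11.15, pandas 2.3.3 and SciPy 1.17.1 were used. The genes, the lists and the tests were chosen with earlier results of these data known. All 10 genes are named, and of each list up to 8 with the smallest adjusted p, plus Atf4, the kinases and the markers, named after their values were seen. Nothing in the labels ties libraries to separate animals, so the p-values cover the spread between libraries, which may be technical. Alternatives were the threshold, the adjustment, the size of change, symbol matching, the SE, the distance and size limits for regions, and the motif.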

Additional observations from a re-analysis of the deposited data

How the results depend on the processing

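Of 17 recomputed counts, 16 stayed within 1.5 times the reported one, though several of the 16 could not have moved. The exception was the number of genes lower on chow, 5 as reported and 2 with Benjamini-Yekutieli adjustment, which allows any dependence between tests and is stricter by construction. Slc7a3 and Asns passed it on chow, and Gpt2 (0.127), Slc7a5 (0.165) and Slc3a2 (0.257) did not. Over both diets it left 5 of 6, with Slc6a9 at an adjusted p of 0.163. Counting at the authors' threshold of 0.1 gave 7 over both diets. Regions of at least 5 percentage points were listed for 3 of the 4 genes. With 0 genes listed on the high fat diet, stricter settings had to give 0 again. The capture count of 0 could not fall, and no region lay beyond the distance limit of 3000 bases. Such counts do not show that a result is stable. No paired analysis was possible because no values of single samples were used, and for the same reason leaving out each replicate was not run. Depth and the spread between animals cannot be read from these tables.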
